A study of Homo sapiens with 6 samples.

Results

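In MDA-MB-231, a long-established triple-negative breast cancer line, 60 genes were expressed at another level in both libraries numbered 3 than in the libraries numbered 1 and 2. They come from a table of 15024 genes, of which 10866 had a mean of at least 200 normalised reads over the 6 libraries. A gene was taken when the log2 ratio of replicate 3 to the mean of replicates 1 and 2, with 1 added to each value, was at least 0.8 in size and had the same sign in both sorted groups. This log2 ratio is called the shift. Of the 60 genes, 14 were higher and 46 were lower in both libraries numbered 3, which is 0.129% and 0.423% of the 10866 genes. The genes were chosen by these shifts, which are therefore given as a description, with no test.

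All cells carried a non-targeting guide (sgNT), were kept in DMEM with 10% serum, and received 10 µM forskolin for 14 days, with fresh medium every 2 days. Forskolin activates adenylyl cyclase, and the cyclic AMP that this enzyme makes activates protein kinase A. CD44-positive cells were then sorted on CD104, the integrin beta 4 subunit, into a CD104high group, which the design text calls a hybrid epithelial-mesenchymal state, and a CD104-/low group, here CD104low, which it calls mesenchymal. Each group had 3 libraries of total RNA, named biological replicates 1 to 3, and the MLL3-mutant cells of the design were not analysed here. Only this 1 line was used, both groups shared the guide and the drug, and nothing in the labels says whether equal numbers mark a common culture or sort, so the spread between replicates may be technical.

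Libraries held between 52088604 and 56958065 reads in genes. ITGB4, the gene of the sort marker, had 17659 ± 1766 normalised reads (SD, n = 3) in CD104high and 3079 ± 743 in CD104low, and the groups did not overlap. In CD104low replicates 1 to 3 it had 2317, 3116 and 3802, a shift of 0.48, against −0.02 in CD104high. The part of this difference in the members' shifts was not tested. All 12 genes of a list of MDA-MB-231 markers were in the table, with a median shift of 0.09 in CD104high and 0.02 in CD104low. Libraries that shared a number deviated together from their group means, and this was most marked for the libraries numbered 3, with a correlation of 0.48 across 14343 genes, against 0.17 and 0.32 for the numbers 1 and 2. Between unlike numbers, CD104high 1 with CD104low 2 had 0.09 and CD104high 2 with CD104low 1 had 0.13. Unlike pairs with a library numbered 3 had −0.37 to −0.22. The deviations within a group cancel, so these correlations depend on each other.

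Collagen IV chains assemble into the network of basement membranes, activins and bone morphogenetic proteins (BMPs) signal through serine/threonine kinase receptors to SMAD transcription factors, and Wnt signals act through co-receptors and TCF/LEF factors. In carcinoma cells these systems are known to take part in adhesion, migration and the balance of epithelial and mesenchymal features.

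Promoter sequences are shown for 4 members whose replicate 3 values lay far from the others or that belong to 1 protein family with opposite shifts: the activin gene INHBA and the collagen gene COL4A5, higher in both libraries numbered 3, and the procollagen protease gene ADAMTS3 and the collagen gene COL4A4, lower in both. Each line holds the 250 bases before the start of the gene in RefSeq (GRCh38.p14), read along the gene's strand, with any match to a searched motif in capitals. The GENCODE 29 spans given below can start elsewhere. By these, the INHBA bases lie inside the gene, those of COL4A4 and ADAMTS3 overlap it, and those of COL4A5 lie before it. Which start these cells use was not tested. The matches are a TATA box (TATAAA) in INHBA, an antioxidant element (TGACNNNGC, here on the other strand) in COL4A5 and a hypoxia element core (ACGTG) in ADAMTS3, and COL4A4 has no match.
INHBA, chr7:41703091-41703340, minus strand: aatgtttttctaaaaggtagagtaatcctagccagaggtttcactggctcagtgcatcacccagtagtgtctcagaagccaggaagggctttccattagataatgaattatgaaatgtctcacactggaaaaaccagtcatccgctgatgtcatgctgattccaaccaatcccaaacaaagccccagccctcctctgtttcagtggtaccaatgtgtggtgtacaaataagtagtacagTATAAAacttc
COL4A5, chrX:108439588-108439837, plus strand: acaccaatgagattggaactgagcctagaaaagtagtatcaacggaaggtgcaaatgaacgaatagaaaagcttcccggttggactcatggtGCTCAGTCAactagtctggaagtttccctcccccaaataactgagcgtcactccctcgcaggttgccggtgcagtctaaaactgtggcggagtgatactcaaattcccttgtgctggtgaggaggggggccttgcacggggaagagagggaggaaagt
ADAMTS3, chr4:72569222-72569471, minus strand: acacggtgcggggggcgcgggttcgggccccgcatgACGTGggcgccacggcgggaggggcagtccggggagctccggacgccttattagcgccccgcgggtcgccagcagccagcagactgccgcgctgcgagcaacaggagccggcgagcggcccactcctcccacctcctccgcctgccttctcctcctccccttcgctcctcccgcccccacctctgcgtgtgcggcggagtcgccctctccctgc
COL4A4, chr2:227164206-227164455, minus strand: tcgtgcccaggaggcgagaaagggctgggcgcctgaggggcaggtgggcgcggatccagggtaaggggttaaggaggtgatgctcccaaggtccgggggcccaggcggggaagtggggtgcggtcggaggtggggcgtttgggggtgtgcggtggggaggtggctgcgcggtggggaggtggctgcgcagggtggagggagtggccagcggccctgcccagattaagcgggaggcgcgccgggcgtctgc
A promoter was found for 44 of the 60 members, 10 higher and 34 lower. Among the 10, TATAAA occurred in 1 (INHBA), and among the 34 in 3 (LYPD6B, PAPPA and LCP1), against 4.66% of 8801 promoters of the same length. The cyclic AMP response element (TGACGTCA), through which protein kinase A acts on transcription, was present in 0 of the 10 and in 1 of the 34 (PDLIM3), against 3.08% of all. Its half-site TGACG, which the full element contains and which was left in lower case, was present in 1 of the 10 (COL4A5) and 7 of the 34, against 31.0%. ACGTG was present in 0 of the 10 and 3 of the 34 (TCF7L1, ADAMTS3 and BEX2), against 24.3%, and TGACNNNGC in 1 and 4, against 12.1%. Of the other motifs searched, the AP-1 element TGANTCA occurred in 0 and 2 (3.49% of all), the TEAD element GGAATG in 1 and 3 (9.41%), the interferon-stimulated response element in 0 and 1 (2.32%), and the sterol element TCACNCCAC (0.875%) and the amino acid response element TGATGNAAT (0.398%) in 0 and 0. Both strands were searched, and TGACNNNGC can overlap TGACG. The median GC content of the 250 bases was 55.8% in the higher and 60.6% in the lower members, and 65.6% over all promoters. A match is a string of letters and not a shown binding site.

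Across the 10866 genes the shift had a median of 0.02 in CD104high and −0.02 in CD104low, with SDs of 0.22 and 0.24. A shift of at least 0.8 was reached by 85 genes in CD104high and by 133 in CD104low. All 60 genes that reached it in both groups had the same sign, and 0 had opposite signs. Over the 10866 genes the shifts of both groups had a Pearson correlation of 0.61 and a Spearman correlation of 0.40, where the points share the 6 libraries and their scaling. The 14 higher members had shifts of 0.80 to 2.15 in CD104high and 1.03 to 2.79 in CD104low, and the 46 lower members −3.55 to −0.81 and −2.92 to −0.84. In 40 members, 9 higher and 31 lower, the difference was at least 1 on the log2 scale in both groups, and in 7, 1 higher and 6 lower, at least 2.

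**Figure D1:**
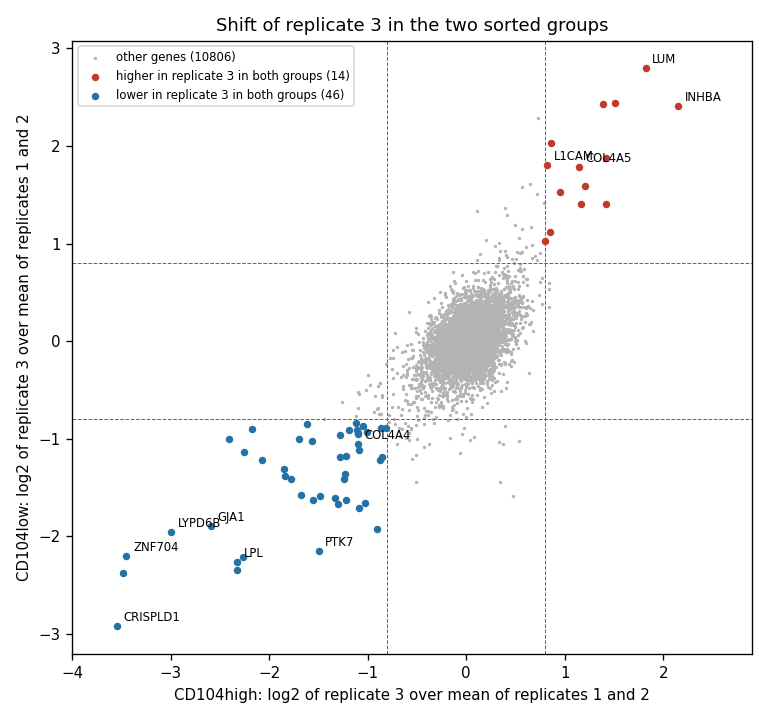
Shift of replicate 3, the log2 ratio of replicate 3 to the mean of replicates 1 and 2 (1 added to each), in CD104high (x axis) and CD104low (y axis) for 10866 genes. Dashed lines mark 0.8 in size; the 14 members higher in both groups lie at the upper right, the 46 lower in both at the lower left, and no gene lies past both lines with opposite signs.

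In all 60 members the replicate 3 value lay beyond both other values of its group, in both groups, as it did for 5060 of the 10866 genes, and the rule nearly fixes this count. The shift was larger in size in CD104low for 13 of the 14 higher members and for 17 of the 46 lower ones, against 55.6% of the 10866 genes. At the edge of the rule, ADGRF5 (smaller shift 0.80), L1CAM (0.82) and F8 (0.85) were the higher members closest to the threshold, and ODAPH (0.79), GLI3 (0.75) and SUSD2 (0.73) the closest genes outside it. On the lower side KLF7 (−0.81), CETN2 (−0.84) and MFAP3L (−0.85) were just inside, and ANGPT1 (−0.80), SNAI1 (−0.80, in CD104low, with −1.44 in CD104high) and BICC1 (−0.78) just outside. No gap in the values separates members from the genes just outside.

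**Figure D2:**
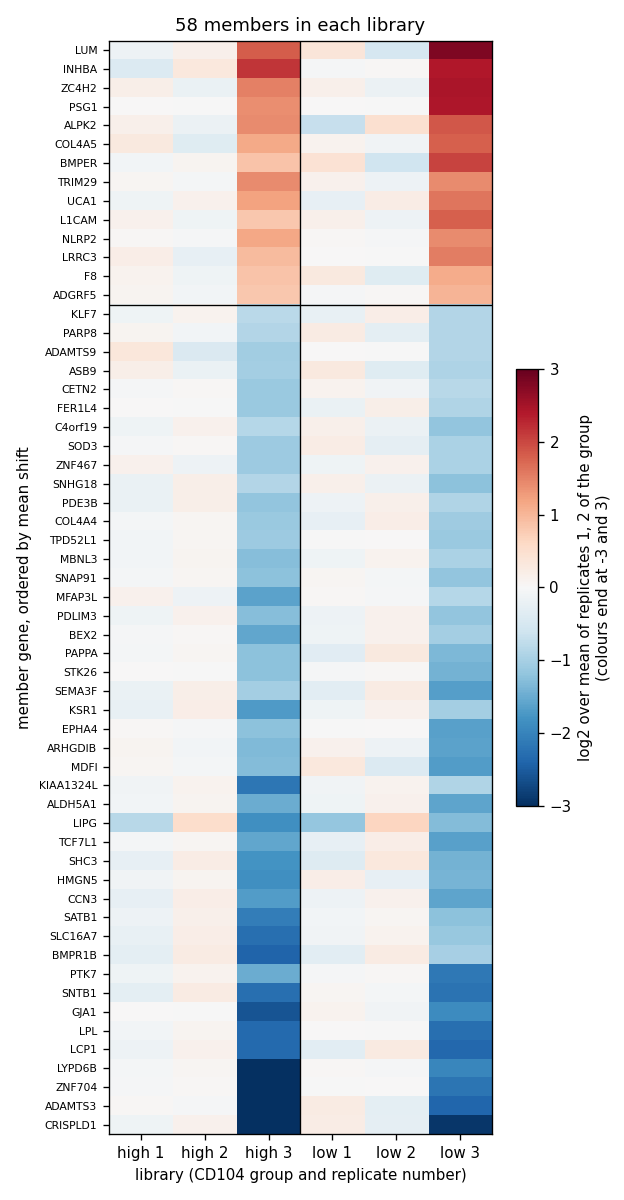
Members (58 of the 60 in rows, ordered by the mean of both shifts) in the 6 libraries (columns), as log2 of each value over the mean of replicates 1 and 2 of its group, 1 added to each. Colours end at −3 and 3, which CRISPLD1, ADAMTS3, ZNF704 and LYPD6B pass or reach in CD104high replicate 3; for LIPG replicate 2 lies above replicate 1 by 1.35 in CD104high and 1.80 in CD104low, and for BMPR1B by 0.54 and 0.57.

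The matrix and its enzymes had 10 members, 2 higher and 8 lower. LUM (lumican, a small proteoglycan that binds collagen fibrils) had 162, 201 and 643 normalised reads in CD104high replicates 1 to 3 and 40.7, 21.7 and 222 in CD104low. Both libraries numbered 3 were the highest of their group, 3.53-fold and 6.94-fold above the mean of the other libraries with 1 added, and the CD104low library numbered 3 lay above both other CD104high libraries. LUM lies on chromosome 12, 91102629 to 91111831, minus strand, identifier ENSG00000139329.5 (GRCh38, spans from GENCODE 29). Its lowest value rests on 22 reads, with an exact 95% Poisson interval of 13.8 to 33.3 reads that covers counting error only, and no member value rests on fewer. In bulk RNA, fewer cells of a type and less RNA per cell cannot be told apart. LUM is also a fibroblast marker. Of 12 genes of the fibroblast and pericyte list, 11 were in the table, in 12 rows. Their summed level was 20246 to 24313 in CD104high and 20310 to 21597 in CD104low. MCAM made up most of it, with 13499 to 15070 normalised reads in CD104high and 15322 to 16257 in CD104low. DCN, THY1 and PDGFRA stayed at 1.03 to 9.88 normalised reads in every library, and none of the listed genes in the table was at 0. PDGFRB and COL1A2 had shifts of 0.54 and 0.53 in CD104high and 0.91 and 1.06 in CD104low. COL1A1, COL3A1 and RGS5 (ENSG00000143248.13) had −0.37, −0.31 and −0.49 in CD104high and −0.27, −0.83 and −0.21 in CD104low. The 7 listed genes with a mean of at least 200, LUM included, had median shifts of 0.16 and 0.32, which leave out the rows under that mean. The part of these markers in the LUM values was not tested.

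The collagen IV chains parted. COL4A5 (alpha 5 chain, chromosome X, 108439844 to 108697545, plus strand, identifier ENSG00000188153.13) had 664, 419 and 1195 normalised reads in CD104high replicates 1 to 3 and 237, 204 and 762 in CD104low. COL4A4 (alpha 4 chain, chromosome 2, 227002711 to 227164453, minus strand, identifier ENSG00000081052.13) had 5079, 5534 and 2469 normalised reads in CD104high replicates 1 to 3 and 1829, 2493 and 1039 in CD104low. Replicate 3 was thus the highest library of its group for COL4A5 (2.20-fold and 3.45-fold) and the lowest for COL4A4 (2.15-fold and 2.08-fold lower). The other chain genes, looked up after the members' values were known, were not members. COL4A1 and COL4A2, which encode the most widespread chains, had shifts of −0.14 and −0.18 in CD104high and −0.36 and −0.19 in CD104low. COL4A3, the neighbour of COL4A4 on chromosome 2, had −0.44 and −0.48, with 421 and 129.8 normalised reads in the libraries numbered 3 against 532, 610.4, 149 and 213 in the others. COL4A6, next to COL4A5 on the X chromosome, had 33.6 reads or fewer in every library.

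**Figure D3:**
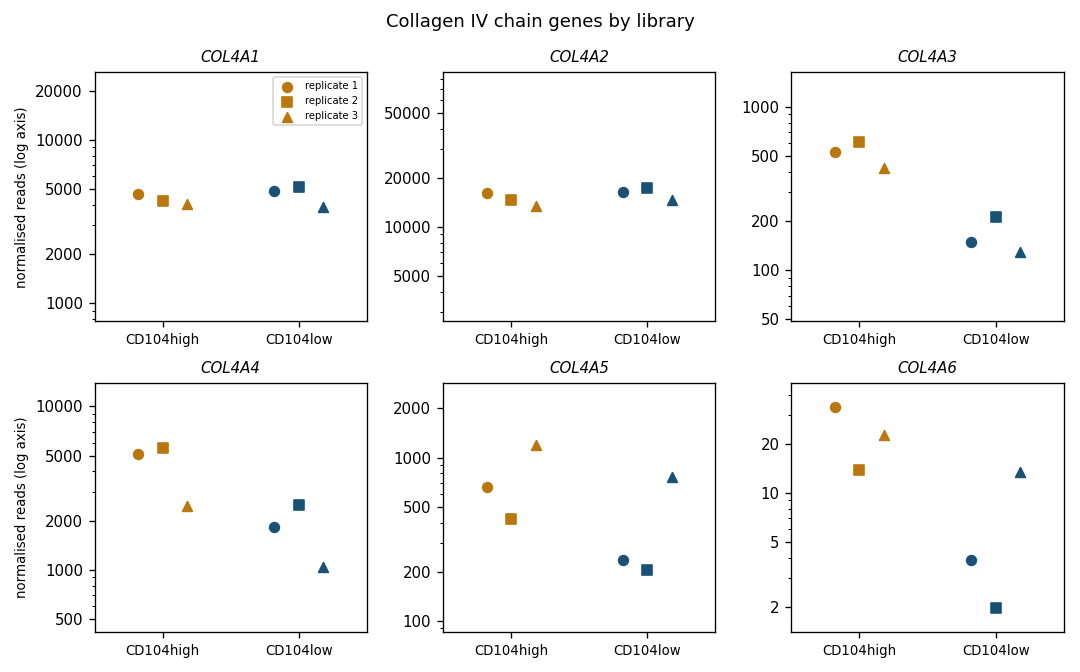
Normalised reads (log axis, the same ratio from bottom to top in every panel) of the collagen IV chain genes in the 3 CD104high and 3 CD104low libraries, 1 point a library. Replicate 3 (triangles) is the highest point of both groups for COL4A5 and the lowest for COL4A4, while COL4A1 and COL4A2 stay within a narrow range.

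Among the matrix enzymes, ADAMTS3, which trims the amino-terminal propeptide of procollagens and activates the lymphatic growth factor VEGFC, had 338, 327 and 28.8 normalised reads in CD104high replicates 1 to 3 and 403, 279 and 64.9 in CD104low. CRISPLD1, a secreted protein with a cysteine-rich domain, was counted in the same group but not as an enzyme. It had 438, 522 and 40.1 normalised reads in CD104high replicates 1 to 3 and 419, 297 and 46.3 in CD104low. These were the lowest values of each group by a wide margin, 11.2-fold and 5.19-fold below the mean of the other libraries for ADAMTS3 and 11.7-fold and 7.59-fold for CRISPLD1, and libraries 1 and 2 of the groups overlapped for ADAMTS3 but not for CRISPLD1. The lowest ADAMTS3 value rests on 28 reads, with an interval of 18.6 to 40.5. CRISPLD1 lies on chromosome 8, 74984515 to 75034558, plus strand, identifier ENSG00000121005.9, and ADAMTS3 on chromosome 4, 72280969 to 72569386, minus strand, identifier ENSG00000156140.10. The paralogue CRISPLD2 had shifts of −0.13 and 0.38. Lower values in this group were also found for CCN3, a matricellular protein (3.19-fold and 2.99-fold lower). PAPPA, a protease that frees insulin-like growth factors from their binding proteins, was 2.35-fold and 2.57-fold lower. SOD3, the extracellular superoxide dismutase, was 2.14-fold and 1.92-fold lower, and ADAMTS9, a proteoglycan-cleaving protease, 2.07-fold and 1.83-fold. MFAP3L, a membrane protein that was counted in this group, was 3.07-fold and 1.80-fold lower. In the CCN family the shift was not shared: CCN1 had 0.08 and 0.05 and CCN2 0.05 and 0.02. CCN5, with a mean under 200, had shifts of 2.27 and 2.59, opposite in sign to those of CCN3.

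Signalling by activin, BMP and Wnt had 6 members. INHBA encodes the subunit of activin A, a ligand of the TGF-beta family, and had 103, 169.7 and 609 normalised reads in CD104high replicates 1 to 3 and 96.1, 102 and 531 in CD104low. The libraries numbered 3 were 4.45-fold and 5.31-fold above the mean of the others, and the numbered pairs differed between the groups by 0.10, 0.72 and 0.20 on the log2 scale. INHBA lies on chromosome 7, 41667168 to 41705834, minus strand, identifier ENSG00000122641.11. INHBB, the subunit of activin B, had a mean under 200 and shifts of 1.12 and 0.92, whereas FST, which encodes the activin-binding follistatin, had −0.56 and −0.48. BMPER, a secreted BMP-binding protein, was the other higher member, with 183, 206 and 355 normalised reads in CD104high replicates 1 to 3 and 130.0, 63.0 and 398 in CD104low. Replicate 3 was the highest library of both groups, and the CD104low shift of 2.03 exceeded the CD104high shift of 0.86.

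Receptor and Wnt members were lower. BMPR1B, a type I BMP receptor, had 288, 419.9 and 65.9 normalised reads in CD104high replicates 1 to 3 and 324, 481 and 201 in CD104low. Replicate 3 was lowest in each group. Its relatives BMPR1A, BMPR2 and ACVR1 had shifts between −0.11 and 0.05. PTK7, a pseudokinase co-receptor of Wnt signalling and planar cell polarity, had 10299, 12087 and 3958 normalised reads in CD104high replicates 1 to 3 and 9859, 10349 and 2277 in CD104low. PTK7 had the highest mean of the lower members, 8138 normalised reads, and its libraries numbered 3 were the lowest of each group (2.83-fold and 4.44-fold lower). The Wnt-responsive factor gene TCF7L1 was 2.94-fold and 3.09-fold lower, LEF1, with a mean under 200, had shifts of −1.39 and −1.13, and TCF7 and TCF7L2 had shifts between −0.24 and 0.06. MDFI, which encodes an inhibitor of MyoD-family factors, was 2.46-fold and 3.18-fold lower. Of the 26 genes of the TGF-beta response list, 26 were in the table and 1, INHBA, was a member. The 21 with a mean of at least 200 had median shifts of −0.12 and −0.10, against 0.02 and −0.02 for all genes. Of 18 Notch and Wnt target genes in the table, 0 were members, and only the 9 with a mean of at least 200 could be.

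Of 8 adhesion, guidance and other surface or secreted members, 4 were higher. L1CAM, an immunoglobulin-family adhesion molecule first known from axon growth, had 2412, 2032 and 3917 normalised reads in CD104high replicates 1 to 3 and 513, 417 and 1626 in CD104low. Both libraries numbered 3 were the highest of their group, and every CD104low value lay below every CD104high value. L1CAM lies on chromosome X, 153861514 to 153886174, minus strand, identifier ENSG00000198910.14. PSG1, a pregnancy-specific glycoprotein, had 215, 213 and 562 normalised reads in CD104high replicates 1 to 3 and 95.1, 93.5 and 514 in CD104low. Replicate 3 was highest in each group. Reads of this family can be split between near-identical copies, so its value is uncertain; PSG4 and PSG5 had shifts of 0.55 and 0.40 in CD104high and 0.74 and 0.88 in CD104low. LRRC3, a membrane protein with leucine-rich repeats, was 1.93-fold and 2.88-fold higher, and the adhesion G protein-coupled receptor gene ADGRF5 1.74-fold and 2.04-fold. ADGRF1, which neighbours ADGRF5 on chromosome 6, had shifts of 0.65 and 1.61.

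**Figure D4:**
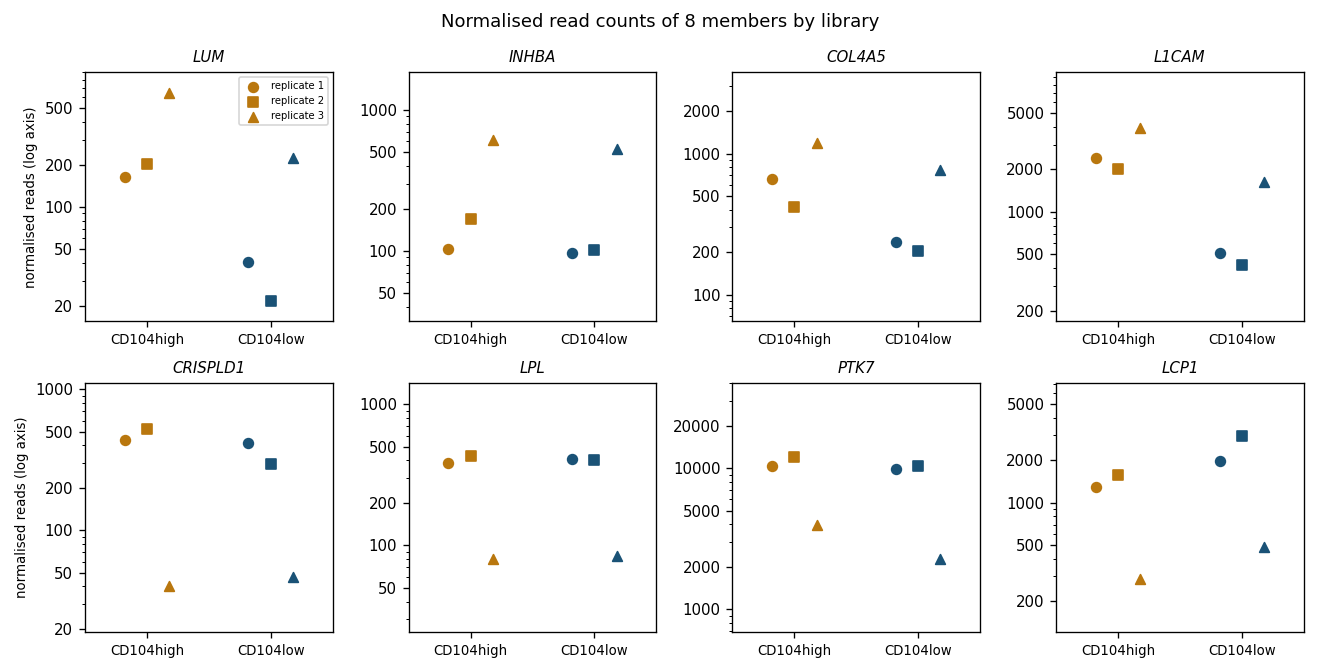
Normalised reads (log axis, the same ratio from bottom to top in every panel) of 4 higher members (top) and 4 lower members (bottom) in the 3 CD104high and 3 CD104low libraries, 1 point a library. Replicate 3 (triangles) is the highest point of each group in the top row and the lowest in the bottom row; for L1CAM every CD104low point also lies under every CD104high point.

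LYPD6B, a surface protein of the Ly6 family, had 1690.5, 1831 and 219 normalised reads in CD104high replicates 1 to 3 and 969, 915 and 242 in CD104low. Both libraries numbered 3 were the lowest of their group. Its paralogue LYPD6 had shifts of −1.26 and −0.63, so it passed the threshold in CD104high only. GJA1, the gap junction protein connexin 43, had 466, 464 and 76.2 normalised reads in CD104high replicates 1 to 3 and 1137, 987 and 284 in CD104low. The libraries numbered 3 were lowest in each group, and GJA1 was lower in CD104high than in CD104low within each number. The shifts of the connexin genes GJA3 and GJB2 lay between −0.31 and 0.54. The ephrin receptor gene EPHA4 (2.34-fold and 3.09-fold lower) and the repulsive guidance ligand gene SEMA3F (2.03-fold and 3.15-fold) completed the group. EPHA2 had shifts of −0.03 and −0.13, and SEMA3D, with a mean under 200, 1.28 and 1.46.

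All 6 members of lipid and small-molecule metabolism were lower. LPL, the lipoprotein lipase, had 385, 427 and 80.3 normalised reads in CD104high replicates 1 to 3 and 407, 403 and 83.4 in CD104low. LIPG, the endothelial lipase, had 407, 1041 and 201 normalised reads in CD104high replicates 1 to 3 and 283, 987 and 255 in CD104low. LPL and LIPG had replicate 3 as the lowest library in both groups, and CD104high and CD104low values of LPL differed little at each number. For LIPG replicate 2 stood above replicate 1 by 1.35 and 1.80 on the log2 scale. In CD104low its replicate 3 (255) lay close to replicate 1 (283), with replicate 2 (987) far above both. The lactate and pyruvate carrier gene SLC16A7 was 4.78-fold and 2.20-fold lower, the succinate semialdehyde dehydrogenase gene ALDH5A1 2.81-fold and 3.02-fold, and PDE3B, a cyclic nucleotide phosphodiesterase, 2.29-fold and 1.88-fold. With INHBA, PDE3B was 1 of 2 members among 22 genes in the table of the list of forskolin and CREB targets. The 18 with a mean of at least 200 had median shifts of −0.13 and −0.09.

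LIPG, ADGRF5 and LCP1 are also known from endothelial or blood cells. Of 10 endothelial markers 5 were in the table, with a summed level of 1103 to 1811 in CD104high and 1313 to 2497 in CD104low, lowest in replicate 3 of each group. ESAM made up most of this sum, with 1020 to 1688 normalised reads in CD104high and 1214 to 2382 in CD104low. Its shifts were −0.62 and −0.84. PECAM1, CLDN5 and TEK had between 1.98 and 17.5 normalised reads in every library. Of 15 leukocyte markers 4 were in the table, and their summed level ran from 1050 to 1261 in CD104high and from 565 to 796 in CD104low. Of these, LAPTM5 had 596, 496 and 382 normalised reads in CD104high replicates 1 to 3 and 455, 266 and 243 in CD104low, with shifts of −0.52 and −0.57. CD14 had 240.0 to 573 with shifts of 0.10 and −0.07, and CSF1R and CD79A had 119.5 or fewer in every library. PTPRC was not analysed here. The part of these markers in the members' values was not tested.

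The 9 members of the cytoskeleton and of cytoplasmic signalling were all lower. LCP1 (plastin 2, an actin-bundling protein of leukocytes that many carcinoma lines also express) had 1299, 1573 and 286 normalised reads in CD104high replicates 1 to 3 and 1972, 2973 and 486 in CD104low. ARHGDIB, a dissociation inhibitor of small GTPases, had 1901, 1717 and 717 normalised reads in CD104high replicates 1 to 3 and 3167, 2624 and 949.6 in CD104low. The libraries numbered 3 were lowest in each group for both genes, 5.01-fold and 5.08-fold for LCP1 and 2.52-fold and 3.05-fold for ARHGDIB, while the plastin genes PLS1 and PLS3 had shifts between −0.16 and 0.15. SNTB1, a syntrophin that links the dystrophin complex to signalling proteins, was 4.80-fold and 4.64-fold lower, and its relative SNTB2 had shifts of −0.01 and 0.29. The adaptor gene SHC3 (3.44-fold and 2.66-fold lower), the Ras pathway scaffold gene KSR1 (3.24-fold and 2.01-fold), the kinase gene STK26 (2.36-fold and 2.66-fold), PDLIM3, which binds alpha-actinin (2.43-fold and 2.27-fold), SNAP91, a clathrin assembly protein (2.33-fold and 2.27-fold), and the centrin gene CETN2 (2.16-fold and 1.79-fold) had smaller differences. For GJA1, LCP1 and ARHGDIB the CD104low value was the higher of each numbered pair.

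Nuclear and RNA-binding proteins gave 9 members, 2 higher and 7 lower. ZC4H2, a zinc finger protein linked to neural development, had 182, 139 and 458 normalised reads in CD104high replicates 1 to 3 and 99.0, 78.8 and 488 in CD104low. TRIM29, a TRIM-family protein of squamous and basal epithelia, had 602, 559.8 and 1551 normalised reads in CD104high replicates 1 to 3 and 425, 349.6 and 1029 in CD104low. ZNF704, a zinc finger protein, had 777, 819 and 72.0 normalised reads in CD104high replicates 1 to 3 and 851, 853 and 184 in CD104low. Replicate 3 was highest in each group for ZC4H2 and TRIM29. In ZNF704 libraries 1 and 2 lay between 777 and 853 in both groups, and replicate 3 was 10.9-fold and 4.60-fold lower. SATB1, which organises chromatin and recruits remodelling enzymes, was 4.21-fold and 2.33-fold lower. Lower values were also found for HMGN5, a nucleosome-binding protein (3.58-fold and 2.61-fold), MBNL3, a splicing regulator (2.43-fold and 1.94-fold), the zinc finger gene ZNF467 (2.14-fold and 1.93-fold), PARP8, an ADP-ribosyltransferase (1.83-fold and 1.85-fold), and the Krüppel-like factor gene KLF7 (1.75-fold and 1.85-fold). TRIM29 was 1 of 22 genes in the table of the list of keratins and squamous differentiation. The 14 with a mean of at least 200 had median shifts of −0.07 and −0.19.

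In coagulation and innate immunity, the factor VIII gene F8 was 1.81-fold and 2.18-fold higher and the inflammasome-family gene NLRP2 2.24-fold and 2.65-fold. F8 overlaps F8A1 and FUNDC2 in the annotation, which lie on the other strand. The sources used here do not state whether counting used the strand, so reads of these genes may count towards F8. The same holds for C4orf19 with RELL1, TPD52L1 with HDDC2 and SNTB1 with MTBP, whose spans overlap on opposite strands. The spans of SATB1 and TBC1D5 overlap on the same strand. Whole gene spans were compared, and overlap of exons was not examined. The genes annotated as non-coding were UCA1, a long RNA first described in bladder carcinoma (2.31-fold and 3.02-fold higher), SNHG18, a snoRNA host gene (1.83-fold and 2.33-fold lower), and FER1L4, a pseudogene that is transcribed (2.15-fold and 1.88-fold lower). The remaining 6 members were the kinase gene ALPK2 (2.68-fold and 3.66-fold higher) and, all lower, KIAA1324L (4.51-fold and 1.87-fold), BEX2 (2.97-fold and 2.03-fold), TPD52L1 (2.13-fold and 2.16-fold), C4orf19 (1.81-fold and 2.27-fold) and ASB9 (2.02-fold and 1.91-fold).

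The other lists of genes held few members. Of 36 lists, 7 held any member, among them INHBA, PDE3B, LUM and TRIM29. The lists of hypoxia and glycolysis, S phase, G2 and mitosis, the interferon response, the amino acid response, heat shock, and YAP and TAZ targets held 0 members. Each had 14 to 48 genes with a mean of at least 200, and the members were 60 of 10866 such genes. A count of 0 is near that share and says little about these lists. The median shifts of these lists were taken over their genes with a mean of at least 200. These medians lay between −0.11 and 0.16 in CD104high and between −0.18 and 0.09 in CD104low, against 0.02 and −0.02 for all genes. The 13 mitochondrially encoded genes had median shifts of −0.19 and 0.04. SNAI1, a transcription factor of the epithelial-mesenchymal transition, was just outside the rule, while ZEB1 had shifts of −0.08 and −0.04 and VIM 0.05 and −0.03.

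By position, 10 of the 60 members (16.7%) lay on the X chromosome, which held 3.12% of the 10866 genes. ZC4H2, COL4A5, L1CAM and F8 were higher, and ASB9, CETN2, MBNL3, BEX2, STK26 and HMGN5 lower. Over the 339 genes of the X chromosome the median shift was 0.09 and 0.25, so that the X-linked members lay on both sides of a median above that of all genes. Chromosome 6 held 7 members (11.7%, against 4.98% of the genes) and chromosome 4 held 6 (10.0%, against 3.77%). Chromosomes 2 and 8 held 5 each (8.33%, against 6.80% and 3.51%). Those of chromosomes 2, 4 and 8 were all lower, as were the fewer members of chromosomes 1, 3, 5, 9, 13, 17 and 20. Of all 60 members 46 were lower. The closest pair, STK26 and MBNL3, lay 293374 bases apart. Of 83 pairs of a member and another gene within 100000 bases, the other gene had a shift of at least 0.5 in both groups in 1, ADGRF1 beside ADGRF5. The members' genes spanned a median of 87097 bases, against 33696 for the 10866 genes, with a GC content of the longest transcript of 46.0% against 47.9%.

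Replicates 1 and 2 were not set apart by the rule. Between these, 42 of the 60 members (70.0%) had the same sign of the log2 ratio of replicate 2 to replicate 1 in both groups, against 53.8% of the 10866 genes. Of the 46 lower members, 24 were higher in replicate 2 than in replicate 1 in both groups and 8 lower. Of the 14 higher members, 2 were higher and 8 lower. The median size of this ratio was 0.24 in CD104high and 0.28 in CD104low for the members and 0.10 and 0.14 for all genes. LIPG and BMPR1B, both higher in replicate 2, were the members with at least 0.5 in both groups (3.33%, against 0.175% of all genes).

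The comparison of the sorted groups asks which genes differed between CD104high and CD104low cells after the same treatment. The rule did not use that contrast, but it used the values of the same libraries. With limma, 23.4% of the 14343 genes that entered the fit passed an adjusted p of 0.05, 12.1% as higher in CD104high and 11.3% as lower. Among the 60 members 4 rose and 0 fell. With the replicate number as a block 27 rose and 10 fell, where 17.4% and 15.4% of the tested genes did, or 32.8% in all. The rule selects genes whose spread within each group is large, and that spread enters the standard error of the unpaired fit. The block takes out shifts that both groups share, which are what the rule selected. The rise in members called with the block is therefore in part set by the rule. The groups did not overlap for 2 of the 60 members, L1CAM among them, against 41.2% of the tested genes. Without both libraries numbered 3, 26 members rose and 9 fell, against 12.6% and 10.5% of the tested genes, or 23.1% in all.

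The adhesion gene L1CAM was 3.80-fold higher in CD104high, with a log2 fold change of 1.93 (SE 0.43, limma adjusted p = 0.0113, and 6.70e-05 with the block). COL4A4 rose by 1.29 (SE 0.34, limma adjusted p = 0.0216) and the pseudogene FER1L4 by 1.18 (SE 0.33, limma adjusted p = 0.0299). These 3 were higher in CD104high in 3 of 3 numbered pairs. Leaving out CD104high replicate 1 or 2 or CD104low replicate 1 ended the COL4A4 call (limma adjusted p = 0.097, 0.0843 and 0.0537) at log2 fold changes of 1.14, 1.08 and 1.35. The same omissions and that of CD104low replicate 3 ended the FER1L4 call (limma adjusted p = 0.128, 0.11, 0.0665 and 0.0591) at 0.99, 1.00, 1.24 and 0.88. LUM had the largest log2 fold change of the members, 2.22 (SE 0.75), but did not pass in the unpaired fit (limma adjusted p = 0.0591) and passed with the block (limma adjusted p = 0.000413). COL4A5 too passed with the block and not without it, at 1.06 (SE 0.48, limma adjusted p = 0.141, and 0.000774 with the block).

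In the other direction, GJA1 had the lowest log2 fold change, −1.42 (SE 0.69, limma adjusted p = 0.163, and 0.000188 with the block), followed by MFAP3L at −0.97 (limma adjusted p = 0.117, and 0.00327 with the block). Some members with large shifts showed little difference between the groups under either fit. CRISPLD1 had 0.22 (SE 0.98, limma adjusted p = 0.893, and 0.41 with the block), INHBA 0.34 (limma adjusted p = 0.77, and 0.138 with the block) and LPL −0.02 (limma adjusted p = 0.988, and 0.932 with the block).

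All 14 higher members had a log2 fold change above 0, from 0.34 to 2.22 with a median of 0.73, and with the block 11 of them rose and 0 fell. Of the 46 lower members 24 (52.2%) were above 0, against 46.6% of the 10866 genes, and with the block 16 rose and 10 fell. Genes of both directions of shift were thus found among those higher in CD104high, while members lower in CD104high with the block were all from the lower set. Whether the sets differ in this was not tested.

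**Figure D5:**
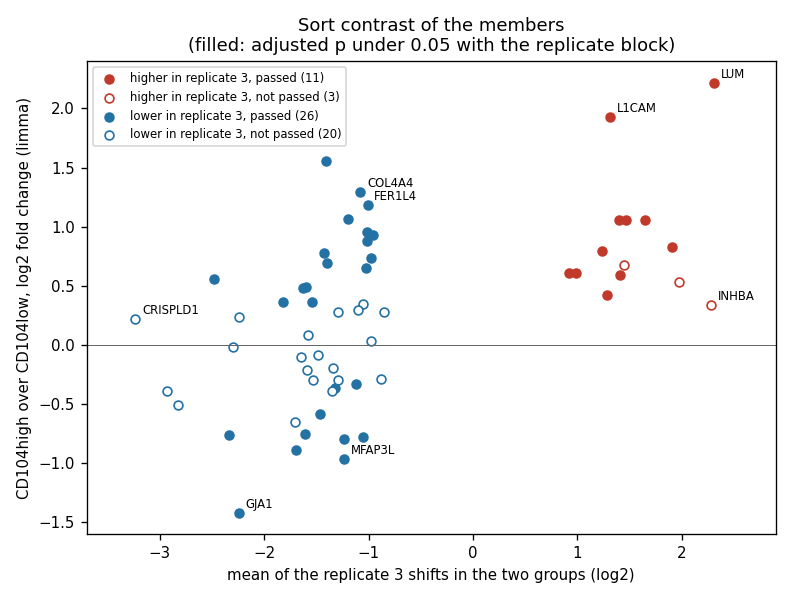
Log2 fold change of CD104high over CD104low (y axis, unpaired limma on log2 of value plus 1) against the mean of both replicate 3 shifts (x axis) for the 60 members. Filled points passed an adjusted p of 0.05 with the replicate number as a block; all 14 higher members lie above 0, and the 46 lower members lie on both sides.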

How the data were processed

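Total RNA of 6 sorted samples was analysed, 3 per group. The submitters' processing notes name the build GRCh38.p13 (hg38), DESeq2 1.30.1, featureCounts 1.5.0, STAR 2.4.0 and FastQC, and give no role for any of them. Signal values are read counts per gene that the authors scaled by 1 size factor per library before deposit. The authors also deposited a log2 fold change with its standard error, a test statistic (a score) and p-values for the sort contrast, which are not printed here. Whole reads were recovered from the size of 1 read. In CD104high replicate 2 that size is near 1 and less certain, so count tests (edgeR 4.0.16, DESeq2 1.42.0) stand only as alternatives. No value in the table is 0, so genes without reads in a library were not analysed here.

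The members were counted by the stated rule. The members and gene lists were chosen with earlier results of these data known. The grouping by role, the relatives of members and the genes just under the mean of 200 were chosen after the values were seen. The members named were the 12 largest shifts in each direction, up to 4 members of each list, up to 6 called in the sort contrast, the 3 genes on either side of the threshold, and ITGB4 and CD44; most others are named to account for the members. Some members and relatives are not reported here. CD44 had 23950 ± 412 normalised reads (SD, n = 3) in CD104high and 26785 ± 1560 in CD104low.

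The sort contrast was tested with limma 3.58.1 under R 4.3.3, using a mean-variance trend on log2(value + 1), for genes with at least 10 in at least 3 libraries, and p-values were adjusted by Benjamini-Hochberg (threshold 0.05). A fold change on this scale understates the change of low genes. Same-numbered libraries deviated together, with correlations of 0.17, 0.32 and 0.48 across genes, so the numbers were taken to pair the samples. The labels say nothing on this. Number 1 of a group with number 2 of the other had 0.09 and 0.13, so their pairing is less certain than that of number 3. The unpaired fit was planned as the main one. The alternatives were pseudocounts, no filter, other thresholds of the rule, TMM scaling, the replicate block, each library left out, edgeR and DESeq2, and, chosen after seeing the data, no libraries numbered 3 and a mean of log2 values in the rule. The tests were checked on simulated data. These held no variation shared by libraries of the same number, so the check cannot decide between the unpaired fit and the block. Spans are from GENCODE release 29, matched without identifier version for 14994 genes.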

Additional observations from a re-analysis of the deposited data

How the results depend on the processing

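The number of members depended on the mean asked for: 97 with a mean of at least 100 and 26 with at least 500, against 60. It was 60 and 59 with pseudocounts of 0.1 and 5, 77 and 40 with shifts of at least 0.7 and 1, 60 with TMM scaling (59 of them shared), 60 with a mean of log2 values, and 56 to 73 when 1 library numbered 1 or 2 was left out. The rule cannot be applied without a library numbered 3. All 34 named members kept the sign of their shift with both other pseudocounts. A pseudocount cannot change that sign, so this count is no check of the shifts.

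The replicate block, which pairs libraries by number, moved the members called in the sort contrast from 4 to 37, and leaving out both libraries numbered 3 moved them to 35; the 4 calls remained in both. Leaving out each library gave 1 to 18, with 1 without CD104high replicate 1 or 2, 11 without CD104high replicate 3 and 18 without CD104low replicate 3. Of all genes tested, 3355 were called, 4706 with the block, and 1805 to 3314 when a library was left out. edgeR with TMM called 3353 and DESeq2 3932 genes, of which 4 and 5 were members. L1CAM passed in every setting run, while COL4A4 did not pass in 3 and FER1L4 in 4 of the 6 settings that left out 1 library, with log2 fold changes that stayed above 0. Counting error is largest for LUM and ADAMTS3, at 22 and 28 reads in their lowest libraries.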

Other observations

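Several genes with a mean between 150 and 200 normalised reads passed both shift thresholds, 16 in all, and were chosen for mention after their values were seen. DSC2, the desmosomal cadherin desmocollin 2, had 295, 172 and 8.23 normalised reads in CD104high replicates 1 to 3 and 418, 263 and 20.6 in CD104low. Its shifts of −4.67 and −3.98 were larger in size than those of any member. SERPINE2, an inhibitor of thrombin and urokinase, had 216, 188 and 24.7 in CD104high and 327, 354 and 41.2 in CD104low. The matricellular gene CCN5 lay on the other side, with 128, 74.4 and 492 in CD104high and 62.1, 47.3 and 334 in CD104low, so replicate 3 was the highest library of each group. SYNE1, a nuclear envelope protein, had shifts of −3.58 and −3.06, and NLGN1, a neuronal adhesion molecule, −3.08 and −2.51.

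Other genes passed the shift threshold in 1 group only, 25 in CD104high and 73 in CD104low. The 25 all had the same sign in CD104low, as did 65 of the 73 in CD104high. SUSD2 had shifts of 0.73 in CD104high and 2.29 in CD104low, and the homeobox gene IRX3 0.71 and 1.51. TMEM238 had 0.48 and −1.58 and SRXN1, which encodes sulfiredoxin, 0.35 and −1.44, so the signs of the shifts were opposite. In CD104high, however, replicate 3 lay near replicate 2, with replicate 1 lower. The CD104high values were 254, 545 and 556 for TMEM238 and 362, 559 and 586 for SRXN1. These values are given without a test.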
